A study of Danio rerio with 5 samples.

Results

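Transcription factors that build and maintain the endodermal organs were followed across adult zebrafish tissue with and without a zCdx1b transgene. The set held the caudal genes cdx1a and cdx4, the forkhead genes foxa1, foxa2 and foxa3, the GATA genes gata5 and gata6, the hepatocyte nuclear factor gene hnf4a, and the pancreatic homeobox gene pdx1. A probe set was taken when its single gene symbol in the platform annotation, brought up to date where a newer symbol existed, was one of these. This gave 9 of the 8793 genes with a probe set of their own symbol, measured by 10 of the 15502 probe sets, because hnf4a had 2 probe sets.

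Each array held RNA of upper digestive tract from 3 pooled adults, 3 months old, of AB genetic background. The transgenic group had 3 pools, and its fish were made with the Tol2 plasmid pmini Tol2-zK5p-zCdx1b-EGFP, injected with transposase RNA into AB* eggs. The name zK5p of the element before zCdx1b is not spelled out in the labels. The wild-type group had 2 pools. The labels do not state the number of founders, the sex of the fish or the borders of the dissected tissue.

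These proteins bind DNA and act in a hierarchy that is well known from vertebrate embryos and adult gut. FOXA proteins open closed chromatin in early endoderm, and GATA5 and GATA6 act beside them in endoderm and heart. HNF4A then holds the programmes of liver, intestine and pancreas, CDX proteins give intestinal identity to gut epithelium, and PDX1 marks pancreas and duodenum.

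Values are on a log2 scale, so a difference of 1 is a doubling, and levels of different probe sets are not compared. A background bound was set for each array as the maximum over 44 bacterial and tag controls, and it ran from 3.64 to 4.13 with its peak in wild-type pool 2. A probe set at or below the bound in every pool of a group has only an upper limit there. Its fitted log2 change is then no exact size, and its fold is known only as a lower limit against the bound. The limit sets the transgenic mean against the mean of the wild-type bounds and carries no interval. A single transgenic pool can therefore read below a wild-type bound. The labelled tissue was checked against markers of cell types. Of 20 intestinal enterocyte markers on the array, 11 lay at or below the bound in both wild-type pools, and 5 were above it in both. All 24 squamous epithelium markers were above it in both wild-type pools.

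Within the set, the called changes of GATA, HNF4 and caudal genes were upward and those of forkhead genes downward. Gata5, hnf4a and cdx4 rose in the transgenic pools from levels at or below background, gata5 by at least 11.2-fold and hnf4a by at least 11.4-fold on probe set 1. Foxa2 fell by 1.93 on the log2 scale and foxa1 by 0.78, while foxa3 and pdx1 did not pass the test. The call of foxa1 was lost under most of the other settings tried. The differences of gata6 and cdx1a were upward, but cdx1a did not pass and gata6 passed only in a fit that kept dim probe sets.

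A filter on low values kept 8 of the 10 probe sets, since a probe set had to reach the 40th percentile of its array in at least 2 of 5 pools. Of the 8 kept, 5 reached that level in no wild-type pool and so entered through the transgenic pools, and their count is given as a description. Among the 8, limma called 4 higher and 2 lower, against 10.1% higher and 11.7% lower over all 10335 probe sets kept, or 21.8% in either direction. In the fit of all 15502 probe sets without the filter, 5 of the 10 were higher and 1 was lower, against 6.20% and 6.85%, or 13.0% in either direction. The groups did not overlap for 8 of the 10, with 6 higher against 15.3% of all probe sets and 2 lower against 25.5%, or 40.8% in either direction. At or below the bound in both wild-type pools and above it in all 3 transgenic pools lay 6 of the 10, against 2.59% of all probe sets. The median change of all probe sets kept was -0.10.

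**Figure D1:**
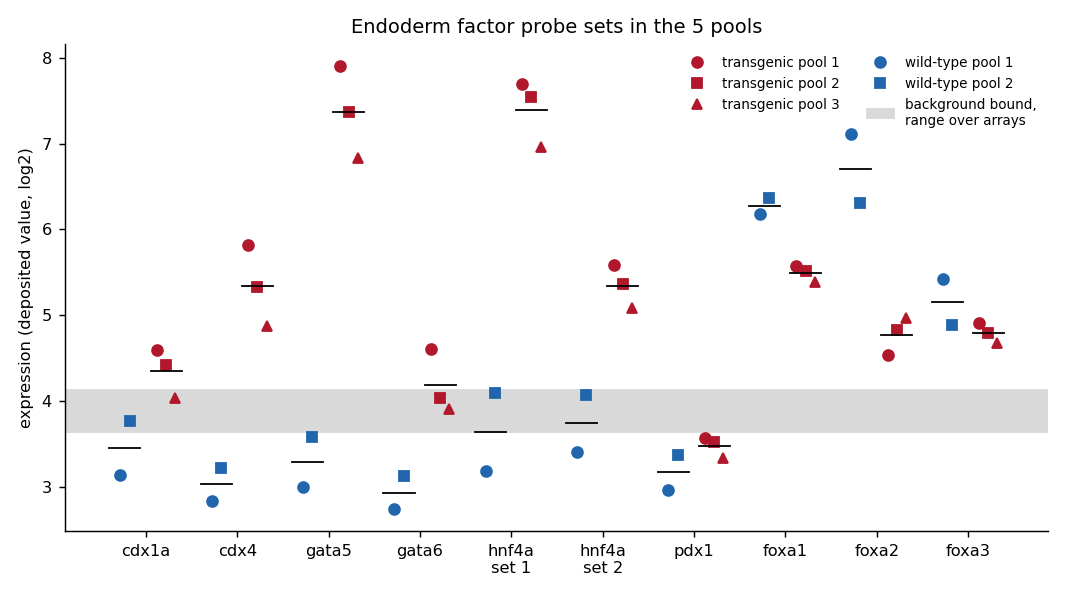
Expression of the 10 probe sets in the 5 pools, as deposited log2 values, with each point a pool and black bars the group means. The grey band spans the background bounds of the 5 arrays. Wild-type points of cdx1a, cdx4, gata5, gata6 and hnf4a lie at or below the bound of their own array and the transgenic points above it, while foxa1 and foxa2 are higher in wild type.

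Gata5 encodes a zinc finger factor needed in zebrafish for endoderm and for the heart. Its values were 7.90, 7.37 and 6.83 in transgenic pools 1, 2 and 3 and 3.00 and 3.59 in wild-type pools 1 and 2. The readings of the groups were separated by 3.25, several times the SD of either. Both wild-type readings were at or below the bound, which was 4.13 in pool 2, so that separation is no exact size. The mean went from 3.30 ± 0.41 (SD, n = 2) to 7.37 ± 0.53 (SD, n = 3), a change of 4.07 (SE 0.38, limma adjusted p = 0.00129). Gata5 kept its call in every alternative listed under the dependence on processing, with changes from 3.78 to 4.36 when a pool was left out.

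Gata6 is a close relative that acts in gut, heart and gut muscle. Transgenic pools 1, 2 and 3 gave 4.61, 4.04 and 3.90, against 2.74 and 3.12 in wild type. All transgenic values exceeded all wild-type values, and both wild-type values were at or below the bound. The filter removed gata6 because it reached the 40th percentile in transgenic pool 1 alone, missing it in pool 2, where that percentile was 4.05. In the unfiltered fit it rose by 1.25 (SE 0.25, limma adjusted p = 0.0215), which is at least 1.23-fold once the bound is used. Transgenic pools 2 and 3 read below the bound of wild-type pool 2, which was 4.13. With wild-type pool 1 left out, gata6 did not pass (0.0928).

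Gata5 and gata6 are also heart genes, so heart markers were read beside them. The summed signal of 9 heart markers, in arbitrary units of the unlogged values, was 278.7 to 310.5 in transgenic pools and 353.2 to 414.3 in wild-type pools. Of the 9, cmlc1, nkx2.5, tbx5a and tbx20 were at or below the bound in all pools, and myl7 in all but wild-type pool 1. The troponin gene tnnt2a fell by 1.84 (limma adjusted p = 0.0104), a call lost without wild-type pool 1 (0.0594), and actc1a, hand2 and myh7, with changes of -0.23, 0.34 and -1.22, did not pass. The sum of gut smooth muscle markers was 2742 to 3136 in transgenic and 1752 to 2180 in wild-type pools. Of these markers 4 of 6 rose, led by the desmin gene desmb (at least 7.39-fold) and the actin gene acta2 (a log2 change of 2.32). The others, tpm1 and mylka, had changes of -2.44 and -0.63 and did not pass. The part of heart or gut muscle in the changes of gata5 and gata6 was not tested. In pooled tissue, fewer cells of a type and less RNA per cell cannot be told apart, here and for every result that follows. The same holds for a difference between the groups in the tissue taken, as the labels do not state its borders.

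Hnf4a encodes a nuclear receptor that sustains the hepatocyte and the enterocyte. Probe set 1 of hnf4a stood at 7.69, 7.54 and 6.96 in transgenic pools, against 3.19 and 4.10 in wild type. Probe set 2 stood at 5.59, 5.36 and 5.09 against 3.40 and 4.07. Every wild-type value of both was at or below the bound of its array, and no transgenic value was. In wild-type pool 2 the values were only 0.0375 and 0.0588 under the bound, which was highest on that array. Probe set 1 rose by 3.75 (SE 0.37, limma adjusted p = 0.00168) and probe set 2 by 1.605 (SE 0.27, limma adjusted p = 0.0108), or at least 2.74-fold. The probe sets shared a direction, and the sizes are lower limits. The part of the transcript that each covers was not analysed here.

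Cdx4, a caudal gene known in zebrafish as kugelig for its role in posterior development and blood formation, rose by at least 2.73-fold. Its transgenic values were 5.81, 5.33 and 4.87 and its wild-type values 2.84 and 3.22, so the groups lay 1.65 apart. Both wild-type pools were at or below the bound, so that distance is no exact size. Its 95% interval for the change ran from 1.56 to 3.05 around a fitted 2.31 (limma adjusted p = 0.00487), and its changes with a pool left out ran from 2.07 to 2.54 with adjusted p of up to 0.0419.

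Cdx1a, a paralog of the gene carried by the transgene, did not pass. Its values were 4.59, 4.42 and 4.03 in transgenic pools and 3.14 and 3.77 in wild-type pools. Transgenic pool 3 read below the bound of wild-type pool 2, which was 4.13. The groups were separated by 0.26, less than the distance between the wild-type pools. The change was 0.90, with a 95% interval from 0.25 to 1.55 (limma adjusted p = 0.0613), and the wild-type values were at or below the bound, which leaves at least 1.38-fold. It passed after quantile normalization (0.0315) and with wild-type pool 2 left out (0.0473). No probe set named cdx1b was found, so the transgene's product was not analysed here.

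Pdx1, the homeobox factor of pancreas and duodenum, was at or below the bound in all 5 pools. It read 3.57, 3.52 and 3.34 in transgenic pools and 2.96 and 3.37 in wild-type pools, and the groups overlapped. The difference of 0.31 (95% interval -0.10 to 0.72) had a limma adjusted p of 0.345 in the unfiltered fit, as the filter removed the probe set. Of the genes that PDX1 controls in textbooks, the insulin gene ins read 9.89, 9.60 and 9.22 in transgenic pools and 3.80 and 4.64 in wild type. The second insulin gene, insb, was at or below the bound in all 5 pools. A signal within background does not show that pdx1 RNA was missing.

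Of the 3 forkhead genes of the set, foxa2 and foxa1 were lower in transgenic pools and foxa3 did not pass. Foxa2, a pioneer factor of endoderm and of mucus-secreting epithelium, had transgenic values of 4.53, 4.83 and 4.96 and wild-type values of 7.11 and 6.30. All 5 values were above the bound, and the groups were 1.34 apart. It fell by 1.93 (SE 0.31, limma adjusted p = 0.00895), which is 3.82-fold. It passed with each pool left out, with changes from -2.34 to -1.53, and did not pass in the unmoderated linear model, at an adjusted p of 0.0742.

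Foxa1, which overlaps foxa2 in function in mouse gut, fell by a smaller amount. It read 5.57, 5.51 and 5.39 in transgenic pools and 6.18 and 6.36 in wild-type pools, with SDs of only 0.09 and 0.13. The change of -0.78 (SE 0.21, limma adjusted p = 0.0477) is 1.72-fold and close to the threshold. Its call was lost without transgenic pool 1, 2 or 3, at 0.109, 0.251 and 0.153, with wild-type pool 2 removed, at 0.0572, with the replicate number as a block, at 0.376, and under further settings given below. Its groups did not overlap.

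Foxa3, a forkhead factor of liver and gut in mouse, did not pass. It read 4.91, 4.80 and 4.68 in transgenic pools and 5.42 and 4.88 in wild-type pools, and wild-type pool 2 fell inside the transgenic range. The change of -0.36 had a 95% interval from -0.91 to 0.19 (limma adjusted p = 0.329). A further gene of this branch, foxa, was looked up after its values were seen and had a change of 0.26 with a limma adjusted p of 0.530 in the unfiltered fit.

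**Figure D2:**
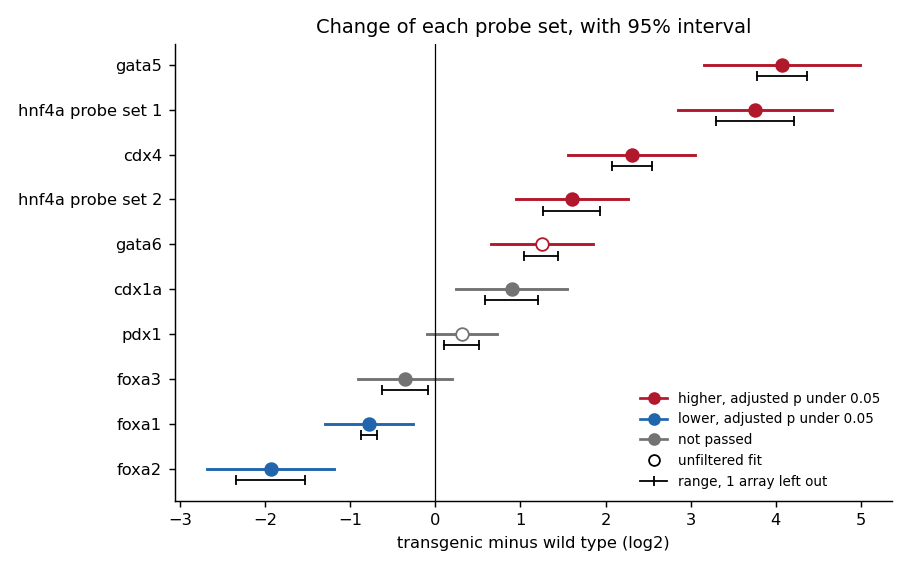
Fitted log2 change of each probe set, transgenic minus wild type, with its 95% interval from limma as a coloured line and the range of changes with 1 array left out as a black line. Gata5 and hnf4a probe set 1 lie near 4, foxa2 near -2, and the intervals of pdx1 and foxa3 cross 0.

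The pools of a group were not alike. For all 6 probe sets with higher, non-overlapping values in the transgenic group, transgenic pool 1 was the highest of the 3 and pool 3 the lowest. Over all 2368 probe sets of that kind, pool 1 was highest in 78.3% and pool 3 lowest in 76.3%. Foxa2 had the reverse order, with pool 1 lowest, and foxa1 and foxa3 were highest in pool 1. In the wild-type group, pool 2 exceeded pool 1 for the same 6 probe sets, as it did for 95.5% of the 401 probe sets at or below the bound in both wild-type pools and above it in all transgenic pools. The bound itself was higher in wild-type pool 2.

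Marker sums followed the same pools. Enterocyte markers summed to 63500, 59850 and 53960 in transgenic pools 1, 2 and 3, hepatocyte markers to 37120, 33270 and 28330, and exocrine pancreas markers to 86770, 81480 and 74350. In wild-type pools 1 and 2 the sums were 670.8 and 563.3, 1959 and 2242, and 297.1 and 382.4. Most of the wild-type hepatocyte sum came from rbp4, which read 10.70 and 10.88 there and did not pass. The orders of gata5, hnf4a and cdx4 over transgenic pools were those of these lists, and also the common order given above. In wild type these 3 genes read higher in pool 2, at or below the bound, whereas the enterocyte sum was higher in pool 1. In pool 1 that sum came mostly from rbp2a, fabp2 and vill. These read 7.80, 7.52 and 6.35 in wild-type pool 1 and 6.80, 6.03 and 6.05 in pool 2. The other enterocyte markers read higher in pool 2, as the hepatocyte and exocrine sums were. Of the 20 enterocyte markers, 19 rose and the villin-like gene vill fell, 24 of 25 hepatocyte markers rose, and 19 of 19 exocrine pancreas markers tested rose. In both wild-type pools, 11 of 20 enterocyte, 19 of 25 hepatocyte and 11 of 20 exocrine markers were at or below the bound. Those tested among them passed the filter only through the transgenic pools, so the counts are given as a description. Over all 6479 genes tested, 728 rose. The part of these cell types in the rises was not tested.

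Other marker lists were also lower in transgenic pools, as foxa2 and foxa1 were. Squamous epithelium markers summed to 48940 and 49800 in wild-type pools and to 9069, 14370 and 15460 in transgenic pools, and 22 of 24 fell. Goblet and mucous markers summed to 6193 and 3947 in wild-type and to 708.2, 1426 and 1608 in transgenic pools, with 5 of 8 tested falling, among them the calpain gene capn9 (-3.66) and the claudin gene cldn3c (-2.22). Both calls were lost without wild-type pool 1 or 2, at adjusted p of 0.061 and 0.0568 for capn9 and 0.162 and 0.097 for cldn3c, and cldn3c also without transgenic pool 2 (0.0643). Foxa2 was lowest in transgenic pool 1, where both sums were lowest, and higher in wild-type pool 1 than pool 2, as the goblet sum was. The squamous sum was not, at 48940 in wild-type pool 1 and 49800 in pool 2. Foxa1 followed neither order, being highest among transgenic pools in pool 1. The sum of striated muscle markers was also lower in transgenic pools, at 2227, 11160 and 20760 in pools 1, 2 and 3 against 41610 and 42330. It thus had the order of foxa2 over transgenic pools too, so that order is not particular to goblet or squamous markers. The share of all lower probe sets with that order was not analysed here. Of the striated muscle markers, 8 of 25 fell and 17 did not pass. Among those that did not pass, acta1a, pvalb1, pvalb2 and pvalb3 had upward changes of 0.50, 1.48, 2.12 and 1.17. Over all 6479 genes tested, 729 fell. The part of these cell types in the falls of foxa2 and foxa1 was not tested.

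**Figure D3:**
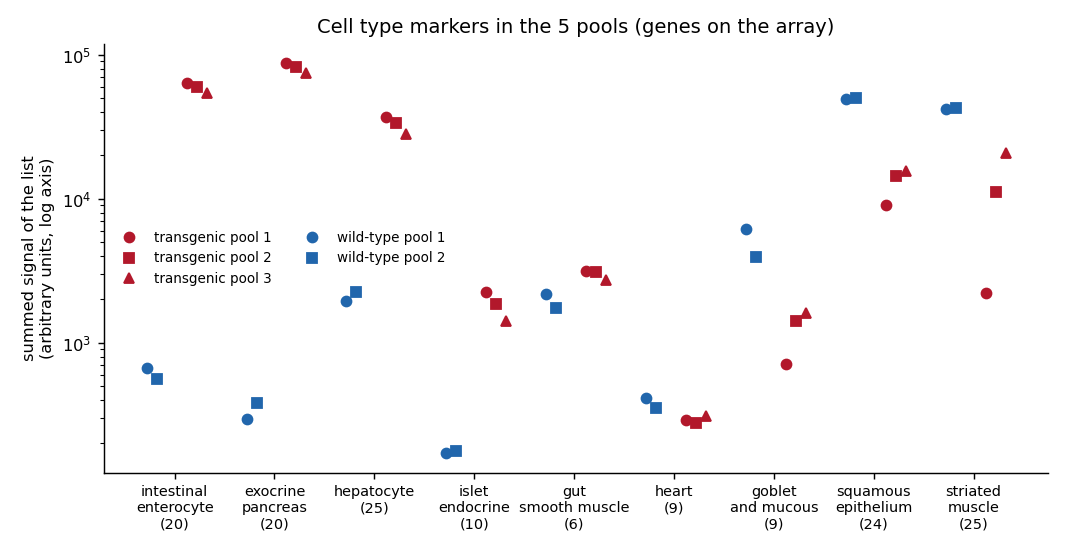
Summed signal of each marker list in the 5 pools, in arbitrary units on a log axis, with the number of genes on the array in brackets. Enterocyte, exocrine pancreas and hepatocyte sums are far higher in transgenic pools, while squamous, goblet and striated muscle sums are higher in wild-type pools.

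Other transcription factors of gut and endoderm were read from a list of 60 names, of which 40 were on the array and 19 passed the filter. Among the 19, the test called 6 higher and 3 lower, and the median change was 0.57, or 0.27 with genes at background set at their bound. Most of the 6 reached the filter level in no wild-type pool and so entered through the transgenic pools. The counts and the median are therefore given as a description. Over all 6479 genes tested, 728 rose, 729 fell and the median was -0.08. The median of the list was -0.02 over all 40 genes without the filter and -0.02 without transgenic pool 2.

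Relatives of hnf4a were among the risers. The nuclear receptor gene hnf4g read 7.76, 7.36 and 6.95 in transgenic pools against 3.71 and 4.57, a rise of 3.22 (SE 0.37, limma adjusted p = 0.00306). Its sister hnf4b read 6.17, 5.89 and 5.49 against 3.39 and 4.16, a rise of 2.07 (SE 0.32, limma adjusted p = 0.00797). The 4 probe sets of hnf4a, hnf4b and hnf4g were thus higher in each transgenic pool than in either wild-type pool, as were 15.3% of all probe sets. Both hnf4a probe sets in both wild-type pools, and hnf4b in wild-type pool 1, were at or below the bound. The corepressor gene nr0b2a, known in mammals as SHP and as a brake on bile acid synthesis, rose by 5.24, at least 17.7-fold, and the homeobox gene nkx2.3 of gut mesenchyme rose by 2.34. The liver and lymphatic factor gene prox1a, named after its values were seen, rose at least 1.21-fold (limma adjusted p = 0.0454). In transgenic pool 3 prox1a read 3.78, below the bound of wild-type pool 2. Its call was lost with transgenic pool 1 or 2 or wild-type pool 1 or 2 left out, at adjusted p of 0.0869, 0.144, 0.161 and 0.087.

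The factors that fell, also named afterwards, were sox9b (-1.66), a progenitor and duct factor gene, sox2 (-1.61), a factor gene of foregut and oesophagus, and ehf (-1.27), an epithelial ETS gene. Sox2 read 4.18, 4.75 and 4.84 in transgenic pools against 6.56 and 5.84, an order over pools like that of foxa2. Leaving out transgenic pool 2 ended the calls of sox2 (0.0515), sox9b (0.0533) and ehf (0.0786). Leaving out wild-type pool 1 ended those of sox2 (0.0728) and ehf (0.0605), and leaving out transgenic pool 3 that of ehf (0.0527). Early endoderm and islet factor genes sox17, sox32, neurod1 and pax6b, picked out afterwards too, were at or below the bound in all 5 pools, as pdx1 was. Others of the list were not, as isl1a was above the bound in all 5 pools and eomesa in all 3 transgenic pools. Of the 40 on the array, 13 were at or below the bound in all 3 transgenic pools and 17 above it in all 3.

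Other genes of the same families were read next. Of 19 other forkhead genes on the array, 9 passed the filter and 0 were called in either direction, with a median of 0.19 that became -0.10 without the filter, -0.15 without transgenic pool 1 and -0.04 without transgenic pool 2. The mesenchymal gene foxl1, picked out afterwards, had a change of 0.76 (limma adjusted p = 0.0713). Of the 5 other GATA names on the array, gata4 was at or below the bound in both wild-type pools and in 1 transgenic pool, with a change of 0.21. The blood and epithelial gene gata2a fell by 1.33 (limma adjusted p = 0.045), a call lost without either wild-type pool, at 0.174 and 0.058, and without transgenic pool 1 or 2, at 0.0645 and 0.0941. Gata3, singled out afterwards, had a change of -2.004 without passing (limma adjusted p = 0.11).

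Genes that textbooks give as targets of the HNF factors were higher nearly throughout. Of 27 on the array, 26 passed the filter and 25 rose, with a median of 5.98, or 5.62 with 17 genes at their bound. Those 17, and also apoa4b.1, passed the filter only through the transgenic pools, so the count is given as a description. Over all 6479 genes tested, 728 rose. The apolipoprotein gene apoa1a rose at least 636-fold, fabp1b.1, which encodes a carrier of fatty acids, at least 306-fold, and apoa4b.2 and serpina1l at least 295-fold and 266-fold. The retinol carrier gene rbp4, the member that did not pass, was high in every pool, at 10.79, 10.73 and 10.56 against 10.70 and 10.88. Many of these genes are also hepatocyte or enterocyte markers, so the list is not independent of the marker sums.

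Targets of the homeobox factors showed the same direction with an exception. Of 5 CDX targets tested, 4 rose, namely the actin bundling gene vil1 (a log2 change of 5.48), the disaccharidase gene si (at least 16.8-fold), the cadherin gene cdh17 (a log2 change of 4.503) and the alkaline phosphatase gene alpi.2 (at least 7.78-fold), and alpi.1 fell by 1.41. All 6 PDX1 targets tested rose, with a median of 5.32, or 4.97 with 3 genes at their bound. Those 3, like vil1, si and alpi.2, passed the filter only through the transgenic pools, so these counts are given as a description. Among the 6, prss1 and sst1.1 rose at least 646-fold and 24.1-fold, and cela1.6 and ins by 9.09 and 5.35 on the log2 scale. The PDX1 target insb and the CDX target vdra were at or below the bound in all 5 pools and were not tested. All of the 6 except slc2a2 are also islet or exocrine pancreas markers. Vil1, si and cdh17 are also enterocyte markers, so these lists are not independent of the marker lists.

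**Figure D4:**
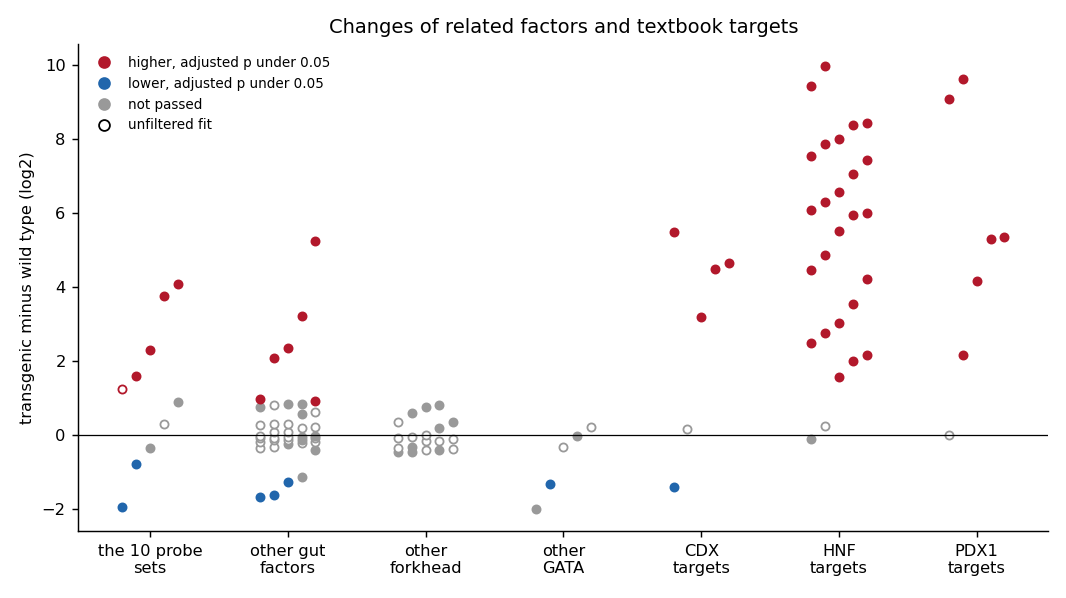
Log2 change, transgenic minus wild type, of the 10 probe sets and of the genes of 6 fixed lists, 1 point per probe set or gene, open where the filter removed it and coloured by call. Other forkhead genes gather between -1 and 1, whereas 25 HNF targets lie above 1.

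Genes with the most similar profile were sought among 6064 genes, by the root mean square distance between log2 profiles over the 5 arrays after each was centred on its own mean. For gata5 they were slc27a2a, a fatty acid transport gene (distance 0.05), and etnppl, a phospholyase gene (0.06). For hnf4a they were stra6, a retinol receptor gene, and serping1, a complement inhibitor gene, on probe set 1 (0.08 and 0.11), and cyp4v2a and slc52a3-1 on probe set 2 (0.05 and 0.07). The complement gene c3a.6 and lmbr1l were nearest to cdx4, at 0.04 and 0.05. In both wild-type pools slc27a2a, stra6 and c3a.6 were at or below the bound, as gata5, hnf4a and cdx4 were. Their distances therefore compare readings within background there. The other neighbours in this paragraph read above the bound in wild-type pool 2.

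The forkhead genes had other neighbours. Foxa2 was nearest to tex9 and to the chemokine receptor gene cxcr4a, which fell by 1.95 and 2.07 (distances 0.06 and 0.07). Both neighbours were below the bound in transgenic pools 1 and 2, where foxa2 was above it, so their falls are no exact sizes. Foxa1 was nearest to the ammonia channel gene rhcgb and to sypl2b (0.02 and 0.03), and foxa3 to the coat protein gene copg2 and the syntrophin gene sntb1 (0.01 and 0.03). Cdx1a and gata6 were nearest to xiap and rgs4 and to micall2b and epn1a, at distances from 0.07 to 0.08. Within the set, the smallest distances were 0.22 between gata6 and hnf4a probe set 2 and 0.23 between gata5 and hnf4a probe set 1. By construction, a small distance needs group differences of like size.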

How the data were processed

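The authors deposited a log2 value for every probe set on each of 5 arrays. Per the submitters' processing notes the tool was MAS5, with no version, scaling target or log step stated. A base of 2 was inferred from the range of 2.23 to 13.58, and every array had a mean of 4.89, so the deposited arrays share a scale. No further normalization was applied. Symbols came from GEO's platform annotation, updated by Entrez identifier to a RefSeq table of GRCz12tu, with 10795 of 15502 probe sets having 1 symbol. Sequences and coordinates were not used here.

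The groups were compared in limma 3.58.1 under R 4.3.3 (lmFit, eBayes with a trend, two-sided, Benjamini-Hochberg, threshold 0.05) after a 40th percentile filter, and dim members were read from the unfiltered fit. The labels call the pools biological replicates, and their small number sets the precision. A list gene was represented by its brightest probe set kept. Genes named were every member, up to 4 called genes per factor or target list, up to 2 per marker list and the 2 nearest profiles per member. Other lists tried were kidney markers (median -0.05, led by slc13a1 at 4.62 and slc20a1a at -1.85), thyroid and pharyngeal markers (tbx1 at -1.44, the 1 gene tested) and islet markers (4 of 7 tested rose). Of the islet markers that rose, gcga, sst1.1 and sst2 passed the filter only through the transgenic pools. The share that rose over all genes tested was 728 of 6479. A further gene of the set and 1 gene of the gut factor list are not reported here. Members and lists were chosen with earlier results of these data known. Alternatives changed the scaling, the filter, the variance model, the threshold, the replicate number as a block and each pool in turn. The fit was tested on simulated data.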

Additional observations from a re-analysis of the deposited data

How the results depend on the processing

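The directions of all 10 probe sets were kept in every alternative run, and 123 of 140 comparisons also kept their side of the threshold. The unmoderated linear model called 837 probe sets (446 higher, 391 lower) against 2250 (1043 and 1207), and of the set 2 higher (gata5 and hnf4a probe set 1) and 0 lower. It lost cdx4 (0.0679), hnf4a probe set 2 (0.0831), foxa2 (0.0742), foxa1 (0.05) and, in the unfiltered fit, gata6 (0.16), and outside the set hnf4b (0.0783), hnf4g (0.0548), nkx2.3 (0.0673), acta2 (0.0878) and others. Of the set, 1 was lower, in place of 2, after quantile normalization, with median centring, without the filter and with the replicate number as a block. In these 4 foxa1 was lost, at adjusted p of 0.0644, 0.0735, 0.0767 and 0.376. At a threshold of 0.1 there were 1821 lower calls. With a pool left out, all calls ranged from 1016 to 2338 (649 to 1164 higher, 367 to 1445 lower), the fewest without transgenic pool 2, with 592 lower without wild-type pool 1, and 1 or 2 of the set were lower. The kidney median turned to 0.012 with median centring, 0.061 without the filter and 0.18 with probe sets averaged per gene, and ranged from -0.27 to 0.46 with a pool left out. The median of other gut factors was -0.022 without the filter and ranged from -0.017 to 0.59 with a pool left out, and that of other forkhead genes was -0.10 and ranged from -0.15 to 0.27. The cause was not tested. In the sample titles, pools 1 and 2 of the groups share only a number. Deviations of same-numbered pools correlated across probe sets at -0.302 and -0.177. With 2 wild-type pools the deviations of each mirror those of the other, so these values cannot show whether pools were paired. The block gave 1866 calls. Probe sets at the bound limit the size of a fold.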
